A study of Mus musculus with 24 samples.

Results

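The 10 endothelial and pericyte genes examined here were Pecam1, Cldn5, Flt1, Kdr, Tek, Vwf, Cd34, Thbd, Slc2a1 and Pdgfrb. They were chosen by name as genes of the cells that line or wrap brain vessels, with earlier results of these data known. All 10 were found among the 53379 genes of the count table. Each passed the filter on low counts, which kept 37598 genes. The libraries came from adult male C57/BL6N mice, acquired at 8 weeks of age and acclimatised for 4 weeks. Kainic acid (KA; 70 nl at 20 mM), a glutamate receptor agonist that sets off status epilepticus, was injected into the deep cortex beside the right hippocampus, and sham mice (SH) had the same surgery with saline. KA mice without convulsive seizures were left out by the study. Right hippocampi were taken 24 hours later from 8 mice per treatment and combined into 3 pools per treatment, so each library is a pool of mice. Nuclei were sorted by the neuronal nuclear protein NeuN into NeuN+ nuclei (neurons) and NeuN- nuclei (glia), which gave 4 groups of 3 mRNAseq libraries. The name glia is the study's: the NeuN- gate takes every nucleus without NeuN, vascular nuclei included.

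Brain capillaries are tubes of endothelial cells sealed by tight junctions, and pericytes sit on their outer wall. Vascular endothelial growth factor (VEGF) receptors and the angiopoietin receptor on endothelium set vessel growth and stability, while platelet-derived growth factor (PDGF) released by endothelium holds pericytes in place. The inner surface also controls clotting: thrombomodulin turns thrombin into an activator of protein C, an anticoagulant, and von Willebrand factor tethers platelets.

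Total counts per library ran from 7769400 to 40364768. As a check of the sort, 7 of 8 neuronal marker genes were lower in glia than in neurons, and all 6 astrocyte, 6 microglia, 5 oligodendrocyte and 4 oligodendrocyte precursor (OPC) markers were higher. In each of the 4 groups the library of replicate 3 held the fewest genes with at least 1 count, 36165 to 42160 over the groups against 40660 to 47748 in the other libraries, and SH glia replicate 1 and KA glia replicate 2 were made from 0.05 ng of RNA in 15 PCR cycles, where the others had 1 ng and 10 cycles. Values are read counts scaled to library size (CPM, the unit of every level given here), with TMM factors, SD is over 3 libraries, and logFC is a log2 fold change from an edgeR quasi-likelihood fit with its false discovery rate (FDR) over all tested genes. In these bulk libraries, fewer cells of a type and less RNA per cell cannot be told apart.

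The largest difference among the 10 genes was that of Thbd, which encodes thrombomodulin (chromosome 2, 148404466 to 148408188 on GRCm38, minus strand). In SH glia it was at 4.42, 7.93 and 3.59 CPM in replicates 1, 2 and 3, and in KA glia at 44.8, 32.1 and 36.4 CPM. Every KA glia library lay several-fold above every SH glia library. The mean went from 5.31 ± 2.31 CPM (SD, n = 3) to 37.8 ± 6.48 CPM (SD, n = 3), a logFC of 2.83 (SE 0.42, edgeR FDR 0.0199), or 7.10-fold. Leaving out any 1 of the 12 libraries gave a logFC between 2.60 and 3.24 and an FDR of at most 0.133, past the threshold in 12 of 12 fits. Without all 4 replicate 3 libraries the logFC was 2.62 (SE 0.50), but the FDR was 0.317.

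In neurons Thbd did not pass the threshold. SH neurons had 12.8, 21.2 and 19.9 CPM, and KA neurons 17.2, 8.16 and 19.8 CPM. These groups overlapped (logFC -0.26, SE 0.39, 95% interval -1.09 to 0.57, edgeR FDR 1.00). The order of the fractions therefore differed between treatments. Among SH libraries Thbd was lower in glia than in neurons (logFC -1.76, SE 0.41, edgeR FDR 0.00865, a contrast in which 6.05% of all genes were lower at FDR below 0.05), and among KA libraries it was higher in glia (logFC 1.33, SE 0.40, edgeR FDR 0.0421, with 3.98% of all genes higher). The lowest KA glia library, at 32.1 CPM, was above the highest neuronal library of either treatment, at 21.2 CPM.

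The difference between the KA effects of both fractions was tested directly. For Thbd it was a logFC of 3.09 (SE 0.57; unadjusted p of the edgeR quasi-likelihood model 4.95e-05), and its FDR of 0.444 missed the threshold of 0.25. By edgeR 0 of 37598 genes passed that test in either direction (0% higher and 0% lower), with 502 genes at an unadjusted p under 0.05, whereas DESeq2 called 16 higher and 18 lower, Thbd among the former (DESeq2 FDR 0.0021). Glia and neurons of a pool come from the same mice, and with the pool as a block the Thbd difference was 3.22 (edgeR FDR 0.0084), in a fit that called 0.157% of all genes higher. Cd34 also passed in that blocked fit (logFC 1.25, edgeR FDR 0.145), against 1.21 (SE 0.49, edgeR FDR 1.00) without the block.

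**Figure D1:**
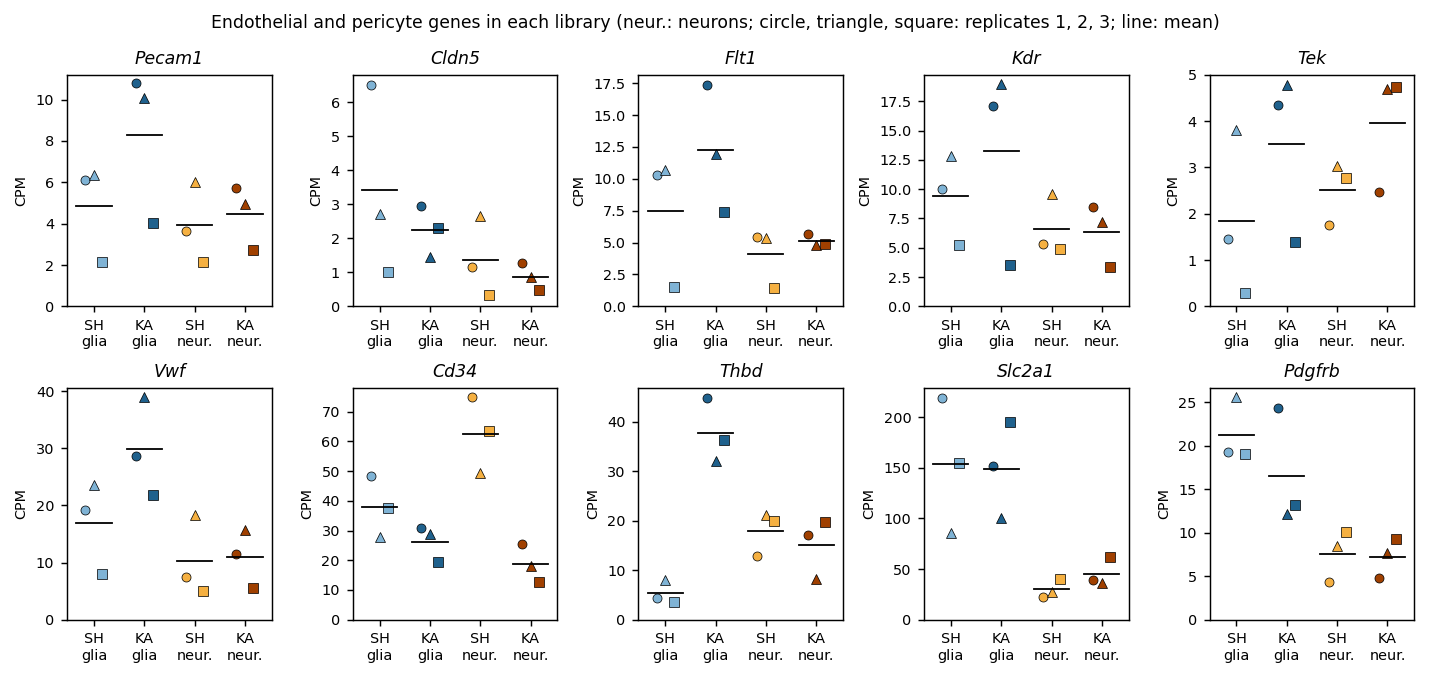
Level of each of the 10 genes in CPM (vertical axes from 0, a separate scale per gene) in SH glia, KA glia, SH neurons and KA neurons, with circles, triangles and squares for replicates 1, 2 and 3 and a line at the mean of 3 libraries. The KA glia libraries of Thbd lie at 32.1 to 44.8 CPM, above all others, and the KA neuron libraries of Cd34 at 12.7 to 25.6 CPM lie below the SH neuron libraries at 49.4 to 74.9 CPM.

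Cd34 encodes a sialomucin of the surface of endothelial and blood progenitor cells (chromosome 1, 194938819 to 194961279, plus strand). Its level in SH neurons was 74.9, 49.4 and 63.5 CPM, and in KA neurons 25.6, 18.2 and 12.7 CPM. No KA neuron library reached the lowest SH neuron library. Cd34 fell from 62.6 ± 12.8 to 18.8 ± 6.49 CPM (SD, n = 3 each, logFC -1.74, SE 0.35, edgeR FDR 0.0976), or 3.33-fold. The call was kept in 6 of 12 fits that left out 1 library, with a logFC from -2.01 to -1.52 in all 12, whereas leaving out replicates 1 or 2 of KA glia, 1 or 3 of SH neurons, or 2 or 3 of KA neurons ended it, with an FDR of up to 0.905. It was also lost without the replicate 3 libraries (logFC -1.51, edgeR FDR 0.879) and without both low-input libraries (-1.72, edgeR FDR 0.299). With the replicate number as a block the logFC was -1.77 (edgeR FDR 0.002), where 1.11% of all genes were lower.

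In glia Cd34 was at 48.5, 27.9 and 37.4 CPM after SH and 30.9, 28.8 and 19.3 CPM after KA. The groups overlapped (logFC -0.53, SE 0.34, 95% interval -1.26 to 0.20, edgeR FDR 1.00). Cd34 was no marker of the NeuN- fraction in these libraries: the SH neuron libraries all lay above the SH glia libraries, the test of that difference missed the threshold (logFC -0.72, SE 0.34, edgeR FDR 0.256), and over all 12 libraries glia and neurons differed by -0.12 (SE 0.24). Exons of Gm16897 on the opposite strand cover 2.03% of its exon bases, and counting did not use strand, so reads there cannot be assigned to either gene.

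The promoters of Cd34 and Slc2a1, a gene described below, are shown because Cd34 was the member that fell in neurons and Slc2a1 the one that differed most between fractions. Both are the 250 bases before and 50 bases after the RefSeq start on GRCm38.p6, plus strand, with motif matches in capitals.
Cd34 (chr1:194938571-194938870): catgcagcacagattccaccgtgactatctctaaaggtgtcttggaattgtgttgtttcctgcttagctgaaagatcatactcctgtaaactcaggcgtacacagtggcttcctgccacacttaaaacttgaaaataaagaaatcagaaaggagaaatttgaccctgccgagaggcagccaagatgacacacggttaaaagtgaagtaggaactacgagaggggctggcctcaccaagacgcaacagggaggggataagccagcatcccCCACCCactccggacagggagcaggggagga
Slc2a1 (chr4:119108495-119108794): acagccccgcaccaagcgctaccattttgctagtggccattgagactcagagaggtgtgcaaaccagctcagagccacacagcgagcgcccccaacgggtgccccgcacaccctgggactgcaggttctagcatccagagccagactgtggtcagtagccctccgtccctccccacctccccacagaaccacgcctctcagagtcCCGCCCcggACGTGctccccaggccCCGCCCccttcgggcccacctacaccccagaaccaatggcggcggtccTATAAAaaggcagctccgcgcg
The letters were searched on both strands. Cd34 held 1 match to CCACCC, a core bound by KLF factors that 31.5% of all promoters of this length hold, and none to TGANTCA (AP-1, in 7.81%), CCGGAA (ETS, in 14.9%), GGGCGG (Sp1, in 35.7%), TGACGT (a core of the CRE, in 7.51%), TATAAA (in 13.6%) or ACGTG (the core of the hypoxia element, in 19.6%). Slc2a1 held 2 matches to GGGCGG, 1 to ACGTG and 1 to TATAAA. The TATAAA of Slc2a1 and the CCACCC of Cd34 lie after the RefSeq start, at bases 29 and 20. RefSeq promoters were matched for 6 of the 10 genes, and Thbd, Pecam1, Vwf and Pdgfrb were not among them.

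Across the 10 genes, KA against SH in glia gave 1 gene higher (Thbd; 0.442% of all genes tested were higher) and 0 lower (0.306% of all genes), with a median logFC of 0.60 against 0.14 over all genes. In neurons 0 were higher (0.279% of all genes) and 1 was lower (Cd34; 0.0612% of all genes), with a median of 0.01. The 3 KA and 3 SH libraries did not overlap for 1 gene in each fraction, where 6.61% of all genes in glia and 9.72% in neurons did not overlap. The study had already listed Thbd as higher in KA glia and Cd34 as lower in KA neurons. For Cd34 in KA neurons it also reported higher DNA methylation, by exon and by gene body, which was not examined here. The 10 genes were chosen with earlier results known, so the shares above are no independent test. Thbd and Cd34 were single genes past the threshold among 10 whose other members are given next by role.

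**Figure D2:**
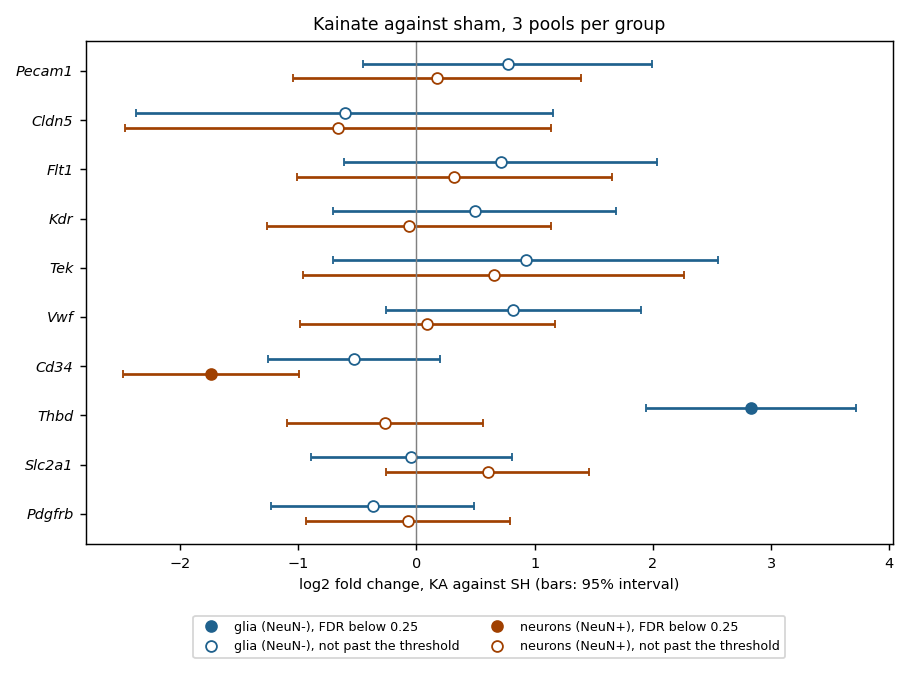
logFC of KA against SH (horizontal axis, log2 scale) for each of the 10 genes in glia (blue) and neurons (brown), with 95% intervals from the fit; filled points passed FDR 0.25. Only Thbd in glia (2.83) and Cd34 in neurons (-1.74) are filled, and the intervals of the other 18 values include 0.

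Pecam1 (CD31, an adhesion molecule of endothelial junctions) and Cldn5 (claudin-5, the main tight junction protein of the blood-brain barrier) were both at low levels. Pecam1 was at 6.11, 6.33 and 2.15 CPM in SH glia and 10.8, 10.1 and 4.04 CPM in KA glia, so each KA library was above the SH library of the same number while the groups overlapped (logFC 0.77, SE 0.58, edgeR FDR 1.00). Cldn5 was at 6.51, 2.73 and 1.02 CPM in SH glia and 2.95, 1.45 and 2.31 CPM in KA glia, an overlap in which the high SH value came from a low-input library. Its logFC of -0.61 (SE 0.83) became 0.39 without that library, SH glia replicate 1. In neurons Cldn5 lay between 0.327 and 2.66 CPM, and neither gene passed the threshold there.

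The VEGF receptors Flt1 (VEGFR1) and Kdr (VEGFR2, the main signalling receptor of endothelium) and the angiopoietin receptor Tek (TIE2) did not pass the threshold in either fraction. Flt1 was at 10.3, 10.7 and 1.52 CPM in SH glia and 17.4, 11.9 and 7.41 CPM in KA glia (logFC 0.71, SE 0.63). Kdr was at 10.0, 12.9 and 5.26 CPM in SH glia and 17.1, 19.0 and 3.54 CPM in KA glia (logFC 0.49, SE 0.57). For both receptors the groups overlapped, with replicate 3 the lowest library of its group. Tek, the gene with the lowest levels per kilobase in glia, was at 1.45, 3.80 and 0.299 CPM in SH glia and 4.35, 4.78 and 1.40 CPM in KA glia (logFC 0.93, SE 0.77, edgeR FDR 1.00). With the replicate number as a block, which removes what KA and SH pools of the same number share, Tek passed at a logFC of 1.29 (edgeR FDR 0.212).

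Vwf, the platelet-binding protein of endothelium, was at 19.1, 23.7 and 7.95 CPM in SH glia and 28.7, 38.9 and 21.8 CPM in KA glia. The groups overlapped, and each KA library was above its same-numbered SH library, by 1.5, 1.64 and 2.75 times. The logFC was 0.82 (SE 0.51, edgeR FDR 1.00), and 0.92 (edgeR FDR 0.138) with the replicate block. In that blocked fit 3 of the 10 genes were higher in KA glia (Thbd, Vwf and Tek), where 3.47% of all genes were. Neuronal Vwf lay at 5.06 to 18.3 CPM after SH and 5.59 to 15.8 CPM after KA.

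Slc2a1 encodes the glucose transporter GLUT1, carried by barrier endothelium and, in another glycosylated form, by astrocytes. It was at 219, 85.9 and 155 CPM in SH glia and 152, 100.0 and 195 CPM in KA glia. The groups overlapped almost fully (logFC -0.04, SE 0.40, 95% interval -0.89 to 0.81). In neurons it was at 22.5, 27.3 and 40.2 CPM after SH and 38.9, 36.5 and 61.4 CPM after KA, higher in each same-numbered pair but with overlapping groups (logFC 0.60, SE 0.40, edgeR FDR 1.00). Exons of Gm12868 on the other strand cover 2.99% of its exon bases. Pdgfrb, the PDGF receptor of pericytes, was at 19.3, 25.6 and 19.0 CPM in SH glia and 24.3, 12.1 and 13.1 CPM in KA glia, again overlapping (logFC -0.37, SE 0.40, 95% interval -1.23 to 0.49).

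Glia and neurons were compared over all 12 libraries to see in which fraction these genes lay, at FDR below 0.05. The genes are taken from those separated between all glia and all neuron libraries to those with no such order. Slc2a1 ranged from 85.9 to 219 CPM (median 153) in glia and from 22.5 to 61.4 CPM (median 37.7) in neurons, with no overlap (logFC 2.03, SE 0.30, edgeR FDR 9.17e-05). Pdgfrb ranged from 12.1 to 25.6 CPM (median 19.1) in glia and from 4.30 to 10.0 CPM (median 8.05) in neurons, also without overlap (logFC 1.33, SE 0.29, edgeR FDR 0.00303). These were 2 of the 10 genes without overlap, against 12.3% of all genes.

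Vwf was the third gene called higher in glia (logFC 1.08, SE 0.36, edgeR FDR 0.0475), with overlapping ranges, and the call held in 5 of 12 fits that left out 1 library (FDR of up to 0.133). So 3 of 10 genes were higher in glia, where 6.91% of all genes were, and 0 were lower, where 11.6% were. Cldn5 (1.33, SE 0.60, edgeR FDR 0.165), Flt1 (1.06, SE 0.45, edgeR FDR 0.126) and Kdr (0.78, SE 0.40, edgeR FDR 0.241) did not pass. Each of the 3 was higher in glia than in neurons of the same pool in 6 of 6 pools. Some of these pairs were near ties, as Flt1 in SH replicate 3 (1.52 against 1.47 CPM). Others were Cldn5 in SH replicate 2 (2.73 against 2.66 CPM) and Kdr in KA replicate 3 (3.54 against 3.40 CPM). The share of all genes higher in 6 of 6 pools was not counted, and 55.9% of all genes had a positive logFC. With the pool as a block they passed, at an FDR of 0.0367, 0.00955 and 0.0495, and 6 of 10 genes were then higher in glia, against 9.84% of all genes. Of 15 further endothelial genes, described below, 2 were higher and 3 lower in that blocked fit.

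Pecam1 did not pass over all libraries (logFC 0.59, edgeR FDR 0.424), nor with the pool as a block (logFC 0.55, edgeR FDR 0.144). Tek (logFC -0.32, SE 0.54), Cd34 (-0.12, SE 0.24) and Thbd (-0.21, SE 0.28) were each higher in glia in 3 of 6 pools and did not pass in any direction over all libraries. The opposite orders of Thbd in SH and KA libraries are given above. The median logFC of the 10 genes was 0.92, beside 0.15 over all genes, 2.67 for the 6 astrocyte markers, 4.45 for the 6 microglia markers and 5.0 for the 5 oligodendrocyte markers. The vascular genes were therefore less unequal between the fractions than these glial markers by median.

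**Figure D3:**
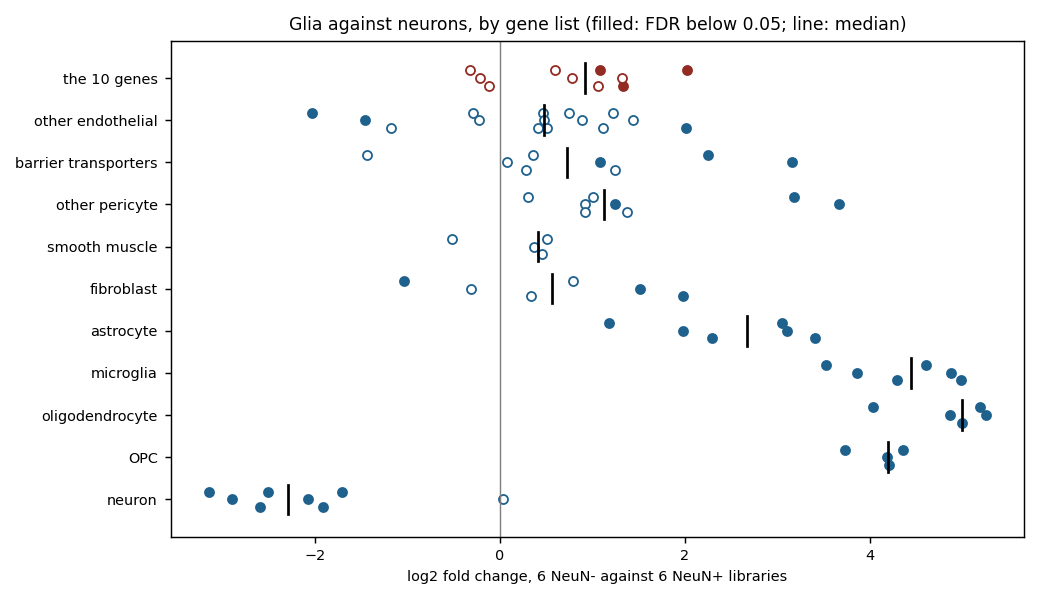
logFC of 6 glia against 6 neuron libraries (horizontal axis, log2 scale) for each gene, in rows by gene list; a black line marks the list's median and filled points passed FDR 0.05. The 10 genes (red) spread from -0.32 to 2.03 around a median of 0.92, while the microglia, oligodendrocyte and OPC markers lie to the right with medians of 4.45, 5.0 and 4.20.

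Other genes of vessels were taken from lists of known function. Of 15 further endothelial genes, Ly6c1 (logFC 2.02, SE 0.58) was higher in glia, Egfl7 (-2.03, SE 0.30) and Ocln (-1.46, SE 0.28) were lower, and 12 did not pass. Over all genes 6.91% were higher and 11.6% lower, so calls in this list were about as frequent as over all genes. With the pool as a block, Eng and Ly6c1 were higher and Egfl7, Sox18 and Ocln lower. Over all genes that fit called 3698 higher and 7394 lower. The 15 genes summed to a mean of 60.3 CPM in SH glia and 64.6 CPM in KA glia. In SH and KA neurons the means were 82.0 and 76.3 CPM, and the libraries of both fractions overlapped. Egfl7, a matrix protein secreted by endothelium, had a mean of 23.4 CPM in SH neurons and 6.11 CPM in SH glia, and Ocln (occludin, a tight junction protein) had 23.7 and 6.93 CPM. Together Egfl7 and Ocln made up much of the SH neuron sum. By gene, 10 of the 15 had a positive logFC of glia against neurons and 5 a negative one, where 55.9% of all genes were positive. Their median logFC was 0.48, beside 0.15 over all genes. Cdh5, the cadherin that defines endothelial junctions, was at 0.478 to 3.38 CPM in SH glia and 0.653 to 2.74 CPM in SH neurons. Of 8 further pericyte genes, Rgs5 (1.24, SE 0.38), Cspg4 (3.66, SE 0.30) and Vtn (3.18, SE 0.38) were higher in glia and none was lower. With the pool as a block 5 of these 8 were higher and 0 lower. Cspg4 is also a gene of OPCs, whose 4 markers had a median logFC of 4.20 between the fractions. The part of OPCs in the Cspg4 value was not tested. The junction genes Pecam1, Cldn5 and Cdh5 were at most at 10.8 CPM in any library of either fraction.

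Compared per kilobase of exon, the 10 genes had the following order in SH glia: Slc2a1 (43.7 CPM per kb), Cd34 (5.21), Pdgfrb (3.89), Cldn5 (2.41), Thbd (1.43), Vwf (1.05), Kdr (1.04), Pecam1 (0.781), Flt1 (0.555) and Tek (0.392). Only Slc2a1 was separated from its neighbour there; each of the other neighbouring pairs overlapped. In KA glia Thbd stood second at 10.1 ± 1.74 CPM per kb (SD, n = 3), below Slc2a1 at 42.5 ± 13.5 and above Cd34 at 3.61 ± 0.846, without overlap with either. In SH neurons Cd34 (8.59 ± 1.75) and Slc2a1 (8.56 ± 2.62) overlapped at the top, both above Thbd (4.83 ± 1.21), which was above Pdgfrb (1.39 ± 0.542) and the rest. In KA neurons Slc2a1 (13 ± 3.93) was alone at the top, Thbd (4.04 ± 1.64) and Cd34 (2.58 ± 0.891) overlapped, and from Pdgfrb (1.32 ± 0.415) down neighbouring genes overlapped.

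Replicate 3 was the lowest library in 4 of 4 groups for Pecam1, Kdr and Vwf, and in 3 of 4 for Cldn5 and Flt1. For Slc2a1 it was the lowest in 0 of 4, and for Thbd and Pdgfrb in 1 of 4. Replicate 3 also had the fewest genes with a count within each group, and the part of this in the vascular levels was not tested.

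For the KA effect in glia, the other vascular lists had few genes past the threshold. Coagulation and fibrinolysis, the system in which thrombomodulin acts, had 1 of 11 genes reported here higher and 0 lower. Over all genes tested, 0.442% were higher and 0.306% lower in KA glia. Plaur, the urokinase receptor, went from 5.52 ± 3.16 to 32.5 ± 9.75 CPM (SD, n = 3 each, logFC 2.57, SE 0.56, edgeR FDR 0.101). Plaur rose without overlap between the groups. The call was kept in 10 of 12 fits that left out 1 library and ended when replicate 3 was dropped from either glia group, with an FDR of up to 0.378. Without both low-input libraries the FDR was 0.414, and without the replicate 3 libraries 0.519. Procr, the endothelial protein C receptor that works beside thrombomodulin, was at 1.51 ± 1.23 and 2.69 ± 0.897 CPM (SD, n = 3 each) and did not pass, and F3 (tissue factor) was at 153 ± 37.9 and 145 ± 56.5 CPM.

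Among 8 further pericyte genes 1 was lower in KA glia, where 0.306% of all genes were. Cspg4 (the proteoglycan NG2, of pericytes and also of OPCs) fell from 291 ± 40.3 to 107 ± 27.3 CPM (SD, n = 3 each, logFC -1.44, SE 0.38, edgeR FDR 0.24), and that call was kept in only 2 of 12 fits that left out 1 library. The summed level of the 4 OPC markers was 1124 to 2178 CPM in SH glia and 450 to 673 CPM in KA glia, without overlap, and its part in the Cspg4 value was not tested. Vtn (vitronectin, a matrix protein made by pericytes) was at 45.2 ± 31.4 CPM in SH glia and 15.8 ± 8.2 CPM in KA glia (SD, n = 3 each, logFC -1.51, SE 0.50, edgeR FDR 0.512), with overlap. With the replicate block 2 of the 8 genes were lower in KA glia, Cspg4 (edgeR FDR 0.00158) and Vtn (logFC -1.41, edgeR FDR 0.0273), where 4.17% of all genes were. Rgs5, another pericyte marker, was at 5.29 ± 0.809 and 5.26 ± 2.07 CPM (SD, n = 3 each, logFC -0.01, SE 0.52).

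None of the 15 further endothelial genes, 8 barrier transporters, 4 smooth muscle genes, 6 fibroblast genes, 16 ligands and partners of the receptors or 6 activation genes passed in glia without a block. Their median logFC was -0.01, -0.10, 1.19, -0.29, 0.15 and 0.39, beside 0.14 over all genes. The gene nearest to the threshold by p in each was Ly6c1 (logFC 1.19, SE 0.78), the transporter Slco1c1 (-1.69, SE 0.62), the smooth muscle actin Acta2 (1.63, SE 0.90), the collagen Col3a1 (0.97, SE 0.48), the VEGFR1 ligand Pgf (1.07, SE 0.43) and the leukocyte adhesion molecule Icam1 (0.81, SE 0.46). In neurons 0 genes of these lists, of the pericyte list or of the coagulation list passed without a block. Of all genes 0.279% were higher and 0.0612% lower in KA neurons. Thbs1 (thrombospondin 1) had 4.10 ± 0.349 CPM in SH neurons and 30.7 ± 6.89 CPM in KA neurons (SD, n = 3 each, logFC 2.90, SE 0.78, edgeR FDR 0.366), and Vegfa, the main ligand of Flt1 and Kdr, had 74.8 ± 38.4 and 256 ± 154 CPM (SD, n = 3 each, logFC 1.78, SE 0.62, edgeR FDR 0.849). Neither group pair overlapped, and neither gene passed without a block. The replicate block changed calls in these lists. In glia it called Slco1c1 lower (logFC -1.98, edgeR FDR 0.00849) with the PDGF receptor Pdgfra, where 4.17% of all genes were lower. It called Col3a1 (0.99, edgeR FDR 0.185), Pgf (1.03, edgeR FDR 0.213), Pdgfb and Thbs1 higher, where 3.47% of all genes were. In neurons it called Thbs1 (edgeR FDR 0.00474), Vegfa (edgeR FDR 0.000652) and Klf4 higher, where 1.94% of all genes were. The fibroblast genes Dcn (-1.54, edgeR FDR 0.00397) and Lum were lower there, where 1.11% of all genes were. Further endothelial, smooth muscle and activation genes had 0 calls in either fraction with it.

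**Figure D4:**
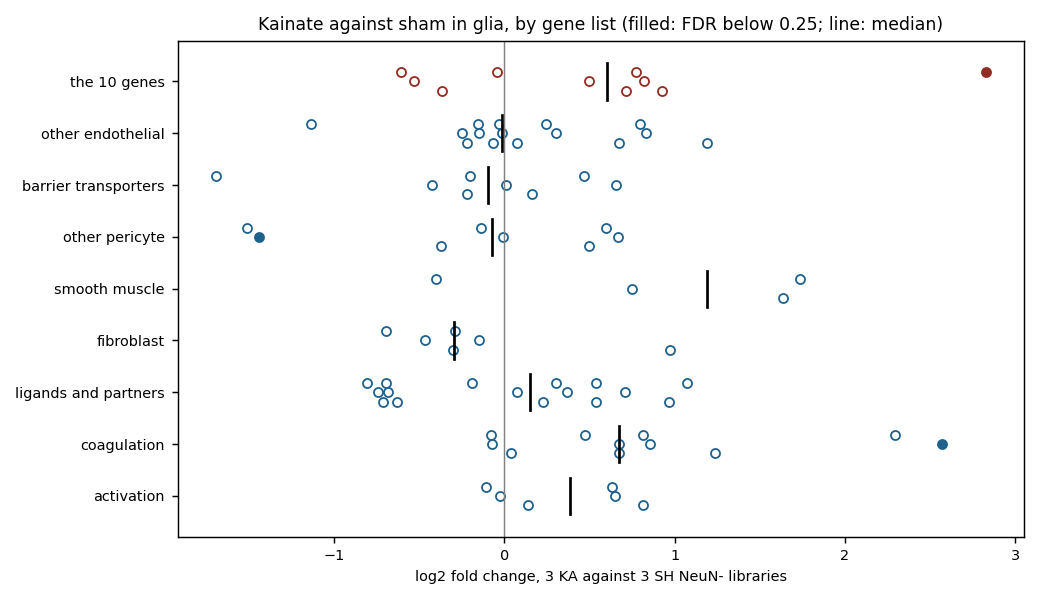
logFC of 3 KA against 3 SH glia libraries (horizontal axis, log2 scale) for each gene, in rows by vascular gene list; a black line marks the list's median and filled points passed FDR 0.25. The filled points are Thbd at 2.83 among the 10 genes, Plaur at 2.57 among coagulation genes, and Cspg4 at -1.44 among pericyte genes.

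Marker levels of other cells were set beside the Thbd value in glia. The summed level of 7 blood leukocyte markers was 2.84 to 23.1 CPM in SH glia and 6.47 to 42.2 CPM in KA glia, with overlap and with 0 of the 5 tested markers past the threshold. S100a8 was at 0 in all 3 SH glia libraries, and S100a8 and Nkg7 were not tested for low counts. The 6 microglia markers summed to 885 to 2030 CPM in SH glia and 550 to 1207 CPM in KA glia, with overlap. Of these 6, 1 fell, P2ry12 (logFC -2.38, SE 0.50, edgeR FDR 0.0826), where 0.306% of all genes were lower. The 15 further endothelial genes summed to 32.3 to 80.0 CPM in SH glia and 32.2 to 87.9 CPM in KA glia, again with overlap. The 5 oligodendrocyte markers summed to 12705 to 27949 CPM in SH glia and 6930 to 13182 CPM in KA glia, with a small overlap, 5 of 5 at a negative logFC and 0 past the threshold (median logFC -1.22). The 6 astrocyte markers summed to 1461 to 2150 CPM and 1016 to 1864 CPM, but Gfap, which reactive astrocytes make more of, was at 143 ± 29.1 and 549 ± 181 CPM (SD, n = 3 each, logFC 1.94, SE 0.65, edgeR FDR 0.546), without overlap. With the replicate block Gfap passed as higher (edgeR FDR 0.00142), as did the leukocyte marker Ms4a1, where 3.47% of all genes were higher. Lower in that fit were 4 OPC, 3 oligodendrocyte, 3 astrocyte and 2 microglia markers and 1 neuron marker, Snap25 (edgeR FDR 0.17). Of all genes 4.17% were lower there. The part of any cell type in the Thbd value was not tested.

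For each of the 10 genes, the 2 genes with the most similar pattern over the 12 libraries were found as those with the smallest root mean square difference of centred log2 CPM, out of all tested genes. Vwf had the closest neighbour, Aknaos, at 0.20, and Pecam1 had Il31ra at 0.24. Thbd had the most distant ones, Gm44049 at 0.50 and Gm8290 at 0.54. The distance was not scaled to a gene's own spread. The SD of centred log2 CPM over 12 libraries was 1.16 for Thbd, 1.15 for Slc2a1, 0.95 for Vwf and 0.75 for Pecam1. The nearest genes were Ephx1 (0.36) and Ramp2 (0.36) for Cd34, Cyp20a1 (0.26) and Scamp2 (0.30) for Slc2a1, and Itpk1 (0.28) and Gm26542 (0.32) for Pdgfrb. For the receptors they were Gm42817 (0.26) and Prokr1 (0.26) for Flt1, Lgr5 (0.24) and Gprin2 (0.25) for Kdr, and Gm16487 (0.32) and Fgd5 (0.32) for Tek. Cldn5 was nearest to Gm11681 (0.40) and Gm44417 (0.46), the second of Vwf was Gm42868 (0.29), and that of Pecam1 was Gm3896 (0.24). These distances are descriptions over 12 libraries that share depth and sort, and none of the other 9 members was among the 2 nearest genes of a member.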

How the data were processed

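mRNAseq libraries of NeuN+ and NeuN- nuclei were analysed (12 of the 24 samples; the RRBS samples were not used here). The authors trimmed reads with Trim Galore 0.4.3, used Rsubread for alignment to mm10, and assigned reads that mapped to 1 place to GENCODE M16 genes by featureCounts with its default settings, which do not use strand. The deposited values are raw read counts without normalization. cDNA was primed from poly(A) RNA of nuclei by the SMART-Seq v4 kit. NextSeq500 and HiSeq3000 were used, and the assignment of libraries to platforms is not given in the sources used here. Pools held 4 or 2 mice: in the study's scheme sample 1 of each treatment came from 4 mice and samples 2 and 3 from 2 each. That replicate numbers follow these sample numbers is not stated.

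Symbols, positions and exon lengths were taken from GENCODE M21 (GRCm38); 105 of 53379 genes had no symbol there and were left out. Versions were R 4.3.3, DESeq2 1.42.0, limma 3.58.1 and edgeR 4.0.16. In edgeR, genes were filtered by filterByExpr (minimum count 10, minimum total 15), scaled by TMM and fitted with glmQLFit (legacy=TRUE) and 4 group means over all 12 libraries. P values of glmQLFTest were adjusted by Benjamini-Hochberg over 37598 genes; thresholds were FDR 0.25 for KA contrasts and 0.05 for glia against neurons. Each standard error was the absolute logFC divided by the root of its F statistic. The study states that cell types were treated separately; separate fits, other filters, scalings, tools and left-out libraries were alternatives. The test was run on simulated counts drawn independently for each library. That setting lacks the shared pools of these data, so it cannot show how they affect the p values.

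The 10 genes, the other lists, and the tests were chosen with earlier results of these data known. From the coagulation list 1 gene was left out of what is reported. Named genes were all 10, and from each other list those past the threshold in a KA contrast (up to 4) or the one with the smallest p; Procr, F3, Rgs5, Vtn, Gfap, Cdh5, genes called with the block and the genes named for glia against neurons were added by role or because they passed there. Replicate numbers were checked as pairs by correlating, across genes, deviations from group means of KA and SH libraries. Same-numbered libraries correlated at 0.457, 0.543 and 0.764 in glia and 0.399, 0.264 and 0.551 in neurons. Replicate 1 against 2 gave 0.349 and 0.222 in glia and 0.142 and -0.116 in neurons. Replicate 3 against 1 or 2 gave -0.671 to -0.407 in glia and -0.502 to -0.116 in neurons. Deviations within 3 libraries are not independent. The pairing of replicates 1 and 2 by number is therefore less clear than that of replicate 3. A replicate block was fitted within each fraction, though KA and SH pools held different mice. P values of the main fit measure the spread between libraries within groups, and treat the glia and neuron libraries of a pool as independent. For glia against neurons and for the difference between KA effects, only the fits with the pool as a block take the pool out. RefSeq promoters came from GRCm38.p6. Figures were drawn with matplotlib.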

Additional observations from a re-analysis of the deposited data

How the results depend on the processing

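Thbd in glia and Slc2a1 and Pdgfrb between fractions kept their direction under every alternative run. The counts of members past the threshold moved as follows. With the replicate block, glia had 3 higher, the difference between KA effects 2 higher, and glia against neurons 6 higher, which FDR 0.25 also gave (6). The difference between KA effects gave 1 higher with no filter on low counts, with at least 10 counts in every library, and with DESeq2. Without the replicate 3 libraries, a choice made after seeing the data, 0 were higher in glia and 0 lower in neurons; the latter was also 0 without both low-input libraries and at FDR 0.05, and 0 to 1 with 1 library left out. Between fractions, Vwf lost its call without both low-input libraries (FDR 0.148), among SH libraries (0.561) and among KA libraries (0.102), Pdgfrb lost it among KA libraries (0.0913), and Flt1 gained one without the replicate 3 libraries (0.0122) and with DESeq2. Among SH libraries 1 was lower in glia than in neurons. The blocks changed no other call of the 10 genes.

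No reversed value belonged to a member past the threshold in that comparison, and 15 of the 40 member values (10 genes in 4 comparisons) reversed under at least 1 alternative; the cause was not tested. In glia, KA against SH changed to 0.42 for Cldn5 and 0.35 for Slc2a1 without both low-input libraries, and for Slc2a1 to 0.01 (0.00917) with the replicate block and 0.10 with a separate fit. In neurons it changed, without the replicate 3 libraries, to -0.049 for Flt1, 0.063 for Kdr and -0.050 for Acta2. The difference between KA effects changed to -0.23 for Cldn5 without the replicate 3 libraries and -0.21 for Tek without both low-input libraries. Glia against neurons changed for Tek to 0.082 (at least 10 counts in every library) and 0.23 (without the replicate 3 libraries). For Cd34 it changed to 0.034 with DESeq2 size factors and with the DESeq2 test, 0.19 with at least 10 counts and 0.48 among KA libraries. For Thbd it changed to 0.12 with at least 10 counts, 0.033 without the low-input libraries, 0.072 without the replicate 3 libraries and 1.33 among KA libraries.

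With 1 library left out, KA against SH in glia ranged from -1.05 to 0.39 for Cldn5 and from -0.33 to 0.39 for Slc2a1. In neurons it ranged from -0.12 to 0.62 for Pecam1, -1.13 to 0.25 for Cldn5, -0.082 to 0.58 for Flt1, -0.31 to 0.31 for Kdr, -0.28 to 0.81 for Vwf, -0.51 to 0.039 for Thbd, -0.35 to 0.18 for Pdgfrb and -0.021 to 0.75 for Acta2. The difference between KA effects ranged from -0.86 to 1.03 for Cldn5, -0.11 to 0.86 for Flt1 and -0.26 to 1.39 for Tek. Glia against neurons ranged from -0.90 to 0.16 for Tek, -0.24 to 0.18 for Cd34 and -0.43 to 0.23 for Thbd.

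Counts over all genes moved more than the calls of members. Those higher in KA glia numbered 166, but 1305 with the replicate block, 443 with at least 10 counts in every library, 302 with DESeq2, 287 with edgeR 4 defaults, 51 at FDR 0.05, 40 without the low-input libraries and 6 without the replicate 3 libraries. Those lower in KA neurons numbered 23, but 417 with the block, 247 with a separate fit, 136 with at least 10 counts, 97 with DESeq2 and 0 without the replicate 3 libraries. Those lower in KA glia numbered 115, but 1566 with the block, 760 with at least 10 counts, 379 with DESeq2, 228 with edgeR 4 defaults, 17 with a separate fit, 11 at FDR 0.05, 1 without the low-input libraries and 0 without the replicate 3 libraries. Those higher in KA neurons numbered 105, but 730 with the block, 409 with a separate fit, 329 with at least 10 counts, 257 with DESeq2, 194 with edgeR 4 defaults, 24 without the replicate 3 libraries and 17 at FDR 0.05. Those lower in KA neurons also numbered 59 with edgeR 4 defaults, 9 with no filter, 6 without the low-input libraries and 1 at FDR 0.05. With 1 library left out, the lowest of these 4 counts were 66, 6, 10 and 0 and the highest 314, 240, 184 and 50, for higher and lower in glia and higher and lower in neurons. The difference between KA effects gave 59 higher and 118 lower with the block, and between fractions 1497 were higher among KA libraries and 2853 lower with no filter, against 2597 and 4367. Levels near 1 CPM, as of Cldn5 and Tek, rest on few reads.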
